A study of Mus musculus with 3 samples.

Results

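The PIM kinases were described in lymphoma B cells from pBIC2 mice. The members were the 3 genes of the family, Pim1, Pim2 and Pim3, found by symbol among the 37646 genes of the deposited count tables, and each symbol matched 1 gene. The mice were of the C57BL/6 strain and carried floxed alleles of p53 and of Blimp1, a driver of plasma cell differentiation, together with a stop-floxed, constitutively active IKK2, the kinase that starts canonical NF-κB signalling (p53F/F, Blimp1F/F, IKK2castopF/stopF). Cg1Cre/+, a Cre recombinase at the Cγ1 constant region locus, acts on these alleles in activated B cells, and an Eµ-hBCL2tg/+ transgene adds human BCL2, a survival protein, under an immunoglobulin heavy chain enhancer. B220+GFP+ cells were sorted from spleens of moribund or control animals, as the labels word it for all libraries, and no age is given. The 3 libraries, all of this genotype and named tumours 1, 2 and 3 here, form 1 group, and the germinal centre B cells that the series names as controls were not analysed here. What follows are levels and their spread over lymphomas, and no difference from normal B cells was tested. The labels do not say that the libraries came from separate mice, so the spread may be technical in part.

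PIM kinases are serine/threonine kinases that promote survival and growth. They have no regulatory domain and are active once made, so their amount is set largely by transcription and by the turnover of their RNA and protein. JAK-STAT and NF-κB signals induce them, and they phosphorylate, among others, the BCL2 family protein BAD, the cell cycle inhibitors p21 and p27 and the translation factor eIF4B. Pim1 was found as a common site of retroviral insertion in mouse lymphomas, where it cooperates with Myc. PIM1 is a frequent target of aberrant somatic hypermutation in human diffuse large B cell lymphoma, and PIM2 is among the genes used to recognise its activated B cell type.

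The genes lie apart in the mm10 assembly. Pim1 (ENSMUSG00000024014.8) is on chromosome 17 at 29490753 to 29496112, Pim2 (ENSMUSG00000031155.17) on chromosome X at 7878262 to 7883432, and Pim3 (ENSMUSG00000035828.11) on chromosome 15 at 88862186 to 88865726, all on the plus strand. The longest annotated transcript of each has 6 exons. The sequences around their main transcription starts run from 250 bases before to 50 after (RefSeq, GRCm38.p6). They are shown because the members, although related kinases, differ there in G and C content and in motif matches. Capitals mark matches on either strand to the GC box (GGGCGG), which Sp factors bind, and to the octamer (ATGCAAAT), which the B cell factors OCT1 and OCT2 bind.
Pim1, chr17:29490535-29490834: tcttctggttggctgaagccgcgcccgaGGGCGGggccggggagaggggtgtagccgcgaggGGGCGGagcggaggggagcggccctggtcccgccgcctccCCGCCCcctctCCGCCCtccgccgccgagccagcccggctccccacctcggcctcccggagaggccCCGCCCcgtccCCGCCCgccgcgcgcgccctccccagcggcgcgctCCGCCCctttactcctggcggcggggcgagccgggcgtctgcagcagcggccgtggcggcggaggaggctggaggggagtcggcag
Pim2, chrX:7878056-7878355: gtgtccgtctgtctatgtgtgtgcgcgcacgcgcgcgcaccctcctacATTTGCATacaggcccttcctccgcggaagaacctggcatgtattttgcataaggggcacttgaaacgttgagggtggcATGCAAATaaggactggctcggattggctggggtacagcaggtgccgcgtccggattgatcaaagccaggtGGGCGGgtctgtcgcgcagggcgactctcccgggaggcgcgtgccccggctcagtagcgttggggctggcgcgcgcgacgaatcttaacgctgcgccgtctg
Pim3, chr15:88861944-88862243: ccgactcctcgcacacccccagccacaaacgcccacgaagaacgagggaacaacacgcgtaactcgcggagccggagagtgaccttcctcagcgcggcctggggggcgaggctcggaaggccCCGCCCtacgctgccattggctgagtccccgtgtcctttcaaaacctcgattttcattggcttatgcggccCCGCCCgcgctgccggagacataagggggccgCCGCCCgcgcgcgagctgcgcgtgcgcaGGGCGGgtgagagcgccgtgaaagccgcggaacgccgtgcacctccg

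The Pim1 sequence was 81.3% G and C, higher than 99.3% of 32851 promoter sequences of the same length, and held 7 GC boxes. At least 1 GC box was found in 35.7% of all promoters and 7 or more in 0.627%. Pim3 was 69.0% G and C with 4 GC boxes, a number that 5.49% of promoters reach. Pim2 was 62.7% G and C with 1 GC box and 2 octamers, which start 202 and 123 bases before the transcription start. An octamer was present in 1.74% of all promoters, and 2 or more in 0.107%. The octamer was searched because it had been seen in the sequence. No match to the STAT motif TTCNNNGAA (8.30% of all promoters), to the κB consensus (4.51%) or to TATAAA (13.6%) was found in any of the 3 windows, and none to the E box CACGTG (7.15%), which MYC and MAX bind. A second Pim1 start in RefSeq, inside the gene, had 1 such E box and no GC box. These counts describe letters in a short window and no binding was measured.

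The 3′ untranslated regions carry AU-rich motifs of the ATTTA kind, known from short-lived messages. The region in Pim1 is 1365 bases long with 5 motifs, that in Pim3 964 bases with 5, and that in Pim2 915 bases with 2. Per kilobase this gives 3.66, 5.19 and 2.19 motifs in Pim1, Pim3 and Pim2, against a median of 1.32 over 20226 genes with at least 100 bases of such sequence. In Pim1, 4 of the motifs overlap in tandem within 30 bases that begin at position 937 of the region, and the densest 30 bases of Pim3, from position 505, hold 2. Capitals mark the motif.
Pim1 3′ UTR site: gaagttttaatgtATTTATTTATTTATTTA
Pim3 3′ UTR site: ccctgctggggctATTTAttgtttaATTTA

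The coding sequences are related but can be told apart by reads of 50 bases. The longest run of identical bases is shown for each pair. It was 24 bases for Pim1 and Pim3 and 17 bases for each of the other pairs.
Pim1 and Pim3: caccgcgacatcaaggacgagaac
Pim1 and Pim2: ctctatgacatggtctg
Pim2 and Pim3: tacactgactttgatgg

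In local alignment of the coding sequences, Pim1 and Pim3 were 78.0% identical over 864 aligned bases, Pim2 and Pim3 74.8% over 650, and Pim1 and Pim2 74.1% over 421. No 50-base stretch was shared within the family. Of the 50-base stretches of the main Pim1 transcript, 280 of 2649 (10.6%) also lie in Gm26885, an antisense gene that overlaps the start of Pim1 by 1173 bases and had 93, 115 and 62 counts in tumours 1, 2 and 3. In Pim2, 43 of 1996 stretches (2.15%) were shared with the predicted genes Gm21182 and Gm7645, and in Pim3 none of 2378. The strand setting of the counting is not given, so reads of the shared start of Pim1 may have been lost or given to either gene.

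Libraries held 15576975 to 17014022 gene counts, of which 25463 genes had at least 1. All 7 pan B cell markers, among them Cd79a, Cd79b and Ms4a1, were at 10 CPM or above in all 3 libraries (CPM, counts scaled by library size with TMM factors). That limit was passed by 30.3% of all genes with a count. The B cell markers were not even, as 3 of the 7 varied by 2-fold or more (42.9%, against 42% of all genes at a mean of 1 CPM or more). Of the 7, 5 were highest in tumour 2 and 2 in tumour 3. Cd79b was at 519, 1339 and 1521 CPM and Ms4a1 at 916, 2590 and 2232 CPM in tumours 1, 2 and 3. Markers of other cells were uneven too. The 12 T cell markers summed to 197, 312 and 1433 CPM in tumours 1, 2 and 3, and 9 of the 11 at a mean of 1 CPM or more were highest in tumour 3, as were 35.3% of all genes at that mean. Cd5 ran the other way at 82.0, 33.9 and 16.0 CPM, and Cd4 was highest in tumour 2 at 5.82 CPM. In tumours 1 and 2 most of the sum came from Cd5, Lck (68.7 and 23.5 CPM) and Cd2 (35.3 and 213 CPM). Cd3e had no count in tumour 1 and was at 1.41 CPM in tumour 2 and 57.7 CPM in tumour 3. The 10 macrophage and monocyte markers summed to 36.0 to 406 CPM, and the sum was highest in tumour 2. Most of it came from Cd68 (24.8, 325 and 162 CPM in tumours 1, 2 and 3). Cd14 and Fcgr1 had no count in tumour 1. Neutrophil markers summed to 0.199, 17.0 and 42.9 CPM in tumours 1, 2 and 3, and erythroid markers to 8.88, 20.1 and 10.7 CPM. NK cell markers summed to 1.86, 2.45 and 48.3 CPM, with Prf1 alone at 40.0 CPM in tumour 3. Klrb1c ran the other way with 26, 1 and 0 counts, and Ncr1 had no count. In sorted cells measured in bulk, fewer cells of a kind and less RNA per cell cannot be told apart.

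Pim1 was the dominant PIM transcript. It reached 821 CPM in tumour 1 (12384 counts; exact 95% Poisson interval 806 to 835), 650.3 CPM in tumour 2 (10608 counts; 638 to 663) and 309 CPM in tumour 3 (5479 counts; 301 to 317). Tumours 1 and 2 were thus high and tumour 3 low, and no interval overlapped another, although intervals cover counting error only and each tumour has 1 library. The mean was 593 ± 261 CPM (SD, n = 3), rank 179 of 25463 genes with a count. Tumour 1 was 2.66-fold above tumour 3 and 1.26-fold above tumour 2.

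Pim2 was at 38.5 CPM in tumour 1 (581 counts; 35.4 to 41.8), 73.0 CPM in tumour 2 (1190 counts; 68.9 to 77.2) and 42.2 CPM in tumour 3 (748 counts; 39.2 to 45.3). Tumour 2 stood above the other two, whose intervals overlapped. The mean was 51.2 ± 18.9 CPM (SD, n = 3), rank 4588, and tumour 2 was 1.89-fold above tumour 1. Pim2 is X-linked, and counts of Xist, which coats the silenced X in female cells, were 66596 in tumour 1 but 31 and 7 in tumours 2 and 3. Its part in the level of Pim2 was not tested. Macrophage and monocyte markers summed to 36.0, 406 and 180 CPM in tumours 1, 2 and 3, and Cd68 alone was at 24.8, 325 and 162 CPM. Of the 8 at a mean of 1 CPM or more, 7 were highest in tumour 2, where Pim2 was highest. The part of these markers was not tested either.

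Pim3 was at 43.0 CPM in tumour 1 (649 counts; 39.8 to 46.5), 43.2 CPM in tumour 2 (704 counts; 40.0 to 46.5) and 27.6 CPM in tumour 3 (489 counts; 25.2 to 30.1). Tumours 1 and 2 could not be told apart, and their order changed with TMM factors from all genes with a count, while tumour 3 was lower. The mean was 37.9 ± 8.96 CPM (SD, n = 3), rank 5543, and tumour 1 was 1.56-fold above tumour 3. Tumour 3, where Pim1 and Pim3 were lowest, also had the highest sums of T cell, NK cell and neutrophil markers. The part of these cells in both levels was not tested. With TMM factors estimated again from tumours 1 and 2, the mean without tumour 3 was 721 CPM for Pim1, 54.5 CPM for Pim2 and 42.2 CPM for Pim3.

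**Figure D1:**
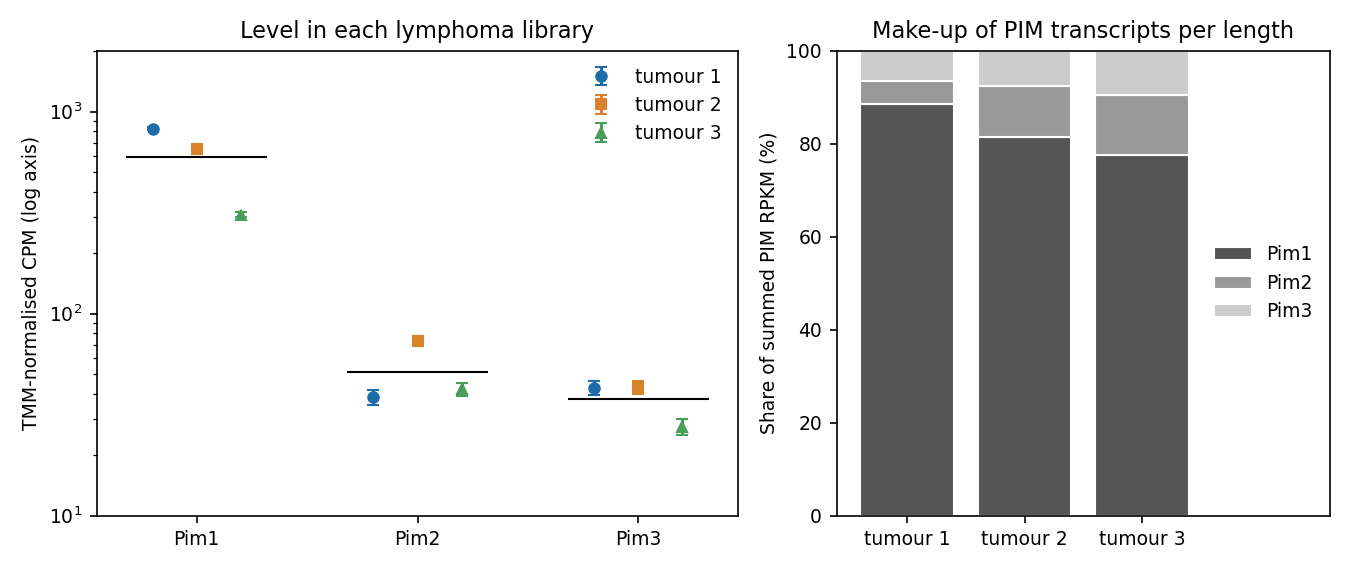
Left, TMM-normalised CPM (log axis) of Pim1, Pim2 and Pim3 in each lymphoma library, with exact 95% Poisson intervals as error bars and the mean of the 3 libraries as a black line. Right, share of the summed RPKM of the 3 genes (%) in each library. Pim1 lies at 309 to 821 CPM and Pim2 and Pim3 at 27.6 to 73.0 CPM, and Pim1 holds 77.6% to 88.6% of the sum per length.

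Levels of different genes were compared per length, as RPKM (CPM per kilobase of merged exons). Pim1 was at 244, 193 and 91.8 RPKM in tumours 1, 2 and 3, Pim2 at 13.8, 26.1 and 15.1 RPKM, and Pim3 at 17.7, 17.8 and 11.4 RPKM. The lowest Pim1 value exceeded the highest of either other gene. On the log2 scale with a prior count of 2, the level of Pim1 per length exceeded that of Pim2 by 4.14, 2.89 and 2.60 in tumours 1, 2 and 3 (3.21 ± 0.82, SD, n = 3), a 9.26-fold difference on average. It exceeded that of Pim3 by 3.78, 3.44 and 3.01 (3.41 ± 0.39), or 10.6-fold. Both differences had the same sign in 3 of 3 libraries, and a two-sided exact sign-flip permutation test gave p = 0.25 for each, the smallest p that 3 libraries allow. With Benjamini-Hochberg adjustment over the 3 pairs, the exact p was 0.375 for both.

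Pim3 and Pim2 were not separated by merged exon length. Pim3 minus Pim2 was 0.36 in tumour 1, -0.55 in tumour 2 and -0.41 in tumour 3 on the log2 scale per length (-0.20 ± 0.49, SD, n = 3; exact sign-flip permutation p = 0.5, adjusted 0.5). By the length of the longest transcript the difference was -0.65, with Pim3 lower in 3 of 3 libraries (exact sign-flip permutation p = 0.25, the smallest possible). By merged exon length the order of levels was therefore Pim1, then Pim2 and Pim3 within their spread. Pim1 held 88.6%, 81.5% and 77.6% of summed PIM RPKM in tumours 1, 2 and 3, Pim2 4.998%, 11.0% and 12.8%, and Pim3 6.43%, 7.49% and 9.60%. The sum was 276, 237 and 118 RPKM.

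All 3 members were at 10 CPM or above in all 3 libraries, a limit passed by 30.3% of the 25463 genes with a count. Pim1 alone of the 3 varied by at least 2-fold between its highest and lowest tumour, which 42% of the 12445 genes at a mean of 1 CPM or more did. Among 497 genes within 2-fold of its own mean, 28.2% varied that much. The SD of log2 CPM between tumours was 0.74 for Pim1, above that of 89.3% of those genes, whose median was 0.37. It was 0.50 for Pim2, above 70.3% of 4302 genes of similar level, and 0.37 for Pim3, above 51.1% of 4176. Pim1 was thus among the more variable genes of its level, Pim2 moderately so, and Pim3 was typical. Without tumour 3 the SD was 0.24 for Pim1 and 0.0026 for Pim3, and without tumour 2 that of Pim2 was 0.12. The library left out was in each case the most distant for that gene, and with 3 libraries this always lowers the SD. Without tumour 2 the SD of Pim1 was 0.97.

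**Figure D2:**
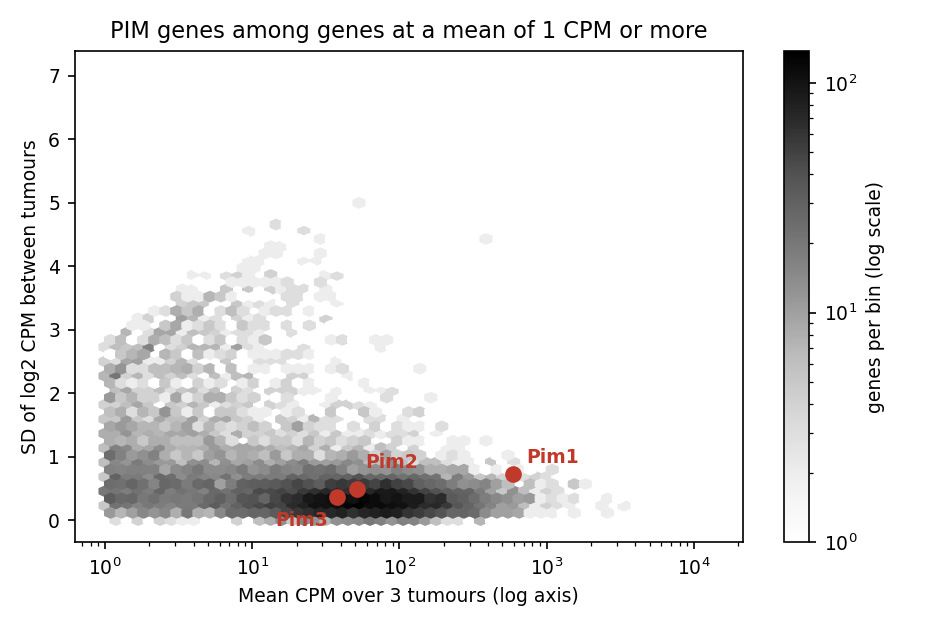
Mean CPM over 3 tumours (log axis) against the SD of log2 CPM between tumours for genes at a mean of 1 CPM or more, drawn as bins shaded by their number of genes (log scale), with the PIM genes as red points. Pim1 sits at 593 CPM with an SD of 0.74, at the upper edge of the dense band, and Pim2 and Pim3 sit inside it at 0.50 and 0.37.

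The members differed in their pattern over tumours. The root mean square distance between their log2 CPM, each centred on its gene mean, was 0.32 for Pim1 and Pim3, 0.40 for Pim2 and Pim3 and 0.67 for Pim1 and Pim2. Over 8418 other genes at a mean of 10 CPM or more, the nearest to Pim1 were Fth1, the heavy chain of ferritin, at 1224, 954 and 466 CPM in tumours 1, 2 and 3, Anapc16, a subunit of the anaphase-promoting complex, at 120 to 45.5 CPM, and Mrpl42, a mitochondrial ribosomal protein, at 160.3 to 58.4 CPM. Nearest to Pim2 were Cd2ap (152, 289 and 163 CPM), Ccdc137 and Ccnl2, and near Pim3 were Tbpl1 (46.1, 46.5 and 29.8 CPM) and H2-Q4. The distance of these genes from their member was at most 0.0251. With only 3 libraries many genes look alike: 42 genes were within 0.1 of Pim1, 90 within 0.1 of Pim2 and 345 within 0.1 of Pim3. Fth1 and H2-Q4 have close copies, and their counts are uncertain.

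Genes next to Pim1 and Pim2 had their highest tumour elsewhere than these members. Fgd2, the nearest protein-coding gene before Pim1 at 111092 bases, was at 363, 764 and 338 CPM in tumours 1, 2 and 3 and was highest where Pim1 was intermediate. Gm17657, 22530 bases after it, had 2, 1 and 3 counts. Otud5, a deubiquitinase gene 1636 bases before Pim2, was at 160.1, 135 and 166 CPM, and Slc35a2, a UDP-galactose transporter 596 bases after it, at 27.8, 22.9 and 23.4 CPM. Both were lowest in tumour 2, where Pim2 was highest. Creld2, 35503 bases before Pim3, was at 171, 287 and 125 CPM, highest in tumour 2 and lowest in tumour 3, the order of Pim3 with TMM factors, although tumours 1 and 2 could not be told apart for Pim3. Ttll8, after it, was not analysed here.

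The genes around the kinases were taken from 11 lists of regulators, substrates and partners, with 116 distinct genes. Of these, 96 were at 10 CPM or above in all 3 libraries (82.8%, against 30.3% of all genes with a count), and their median was 94.3 CPM against 0.868 CPM for all genes with a count. Genes at a mean of 1 CPM or more numbered 113, of which 51 varied by 2-fold or more (45.1%, against 42%). The order of Pim1, with tumour 1 above 2 above 3 and at least 2-fold between tumours 1 and 3, was shared by 14 of the 113 (12.4%, against 7.22%). By any margin, 26 of the 113 had that order, against 2259 of the 12445 genes at a mean of 1 CPM or more. The reverse order with at least 2-fold was found in 13 of the 113 and 1342 of the 12445. Genes described below by their order are to be read beside these numbers, and no link to Pim1 was tested. The number of each list at 10 CPM or above is to be read beside the 30.3% of all genes with a count.

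**Figure D3:**
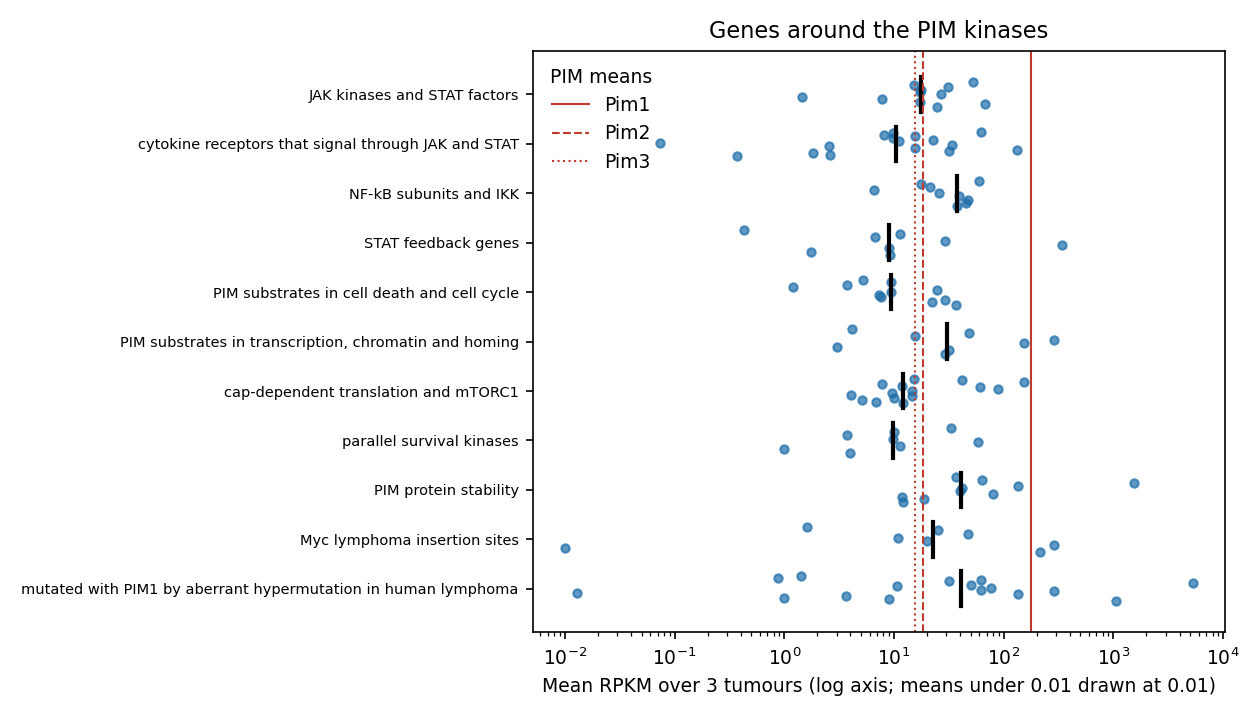
Mean RPKM (log axis) of each gene in the 11 lists, 1 blue point a gene, with the list median as a black bar and the means of Pim1, Pim2 and Pim3 as red lines. Per length, Pim1, at 176 RPKM, lies above every list median (9.02 to 41.1 RPKM), while Pim2, at 18.3 RPKM, lies below 5 of the 11 medians and Pim3, at 15.6 RPKM, below 6.

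Upstream of PIM transcription, 10 of 11 JAK kinases and STAT factors were at 10 CPM or above in all 3 libraries (list median 125 CPM). Jak1, which pairs with many cytokine receptors, was at 300, 319 and 514 CPM in tumours 1, 2 and 3, and Stat3, which carries IL-6 and IL-10 family signals, at 189, 235 and 346 CPM. Stat6, the factor of IL-4 signals, was at 427, 215 and 243 CPM, and Tyk2 at 169 ± 9.31 CPM (SD, n = 3). Of the 11 genes, 8 were highest in tumour 3, where Pim1 was lowest, against 35.3% of all genes at a mean of 1 CPM or more. Jak2 (67.1, 46.2 and 118 CPM) and Stat4, a factor known from T and NK cells (3, 20 and 276 counts), varied most. T cell markers were highest in the same library, and their part in these levels was not tested.

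Of 16 cytokine receptors that signal through these kinases, 11 were at 10 CPM or above in all 3 libraries (list median 43.2 CPM). Il2rg, the common gamma chain, was at 314 ± 39.7 CPM, Il4ra at 191 ± 1.29 CPM, Il21r at 111 ± 19.97 CPM and Crlf2, the TSLP receptor, at 92.7 ± 30.8 CPM (SD, n = 3). Il4ra differed by 1.01-fold between tumours while Pim1 differed by 2.66-fold. Il2rb and Il2ra, chains of the IL-2 receptor, varied most: Il2rb had 30, 115 and 3361 counts and Il2ra 14, 562 and 145. Il2rb, which T and NK cells also express, was highest in the library with the highest T cell markers, whose part was not tested. Il13ra1 had 1, 6 and 7 counts.

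All 9 NF-κB subunits and IKK genes were at 10 CPM or above in all 3 libraries (list median 148 CPM), and none varied by 2-fold, against 42% of all genes at a mean of 1 CPM or more. Ikbkb, whose active form is part of the model and whose reads cannot be split between transgene and endogenous gene here, was at 409 ± 65.2 CPM. Of the 9 genes, 6 were highest in tumour 3, where Pim1 was lowest, against 35.3% of all genes at a mean of 1 CPM or more. By any margin, 2 of the 9 had the order of Pim1. Rel was 1 of these at 407, 343 and 303 CPM in tumours 1, 2 and 3, 1.35-fold apart. Nfkb1 was at 341, 220.3 and 379 CPM, Nfkb2 at 187, 138 and 209 CPM, and Bcl3, a nuclear partner of NF-κB, at 192, 127 and 125 CPM.

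Of 8 feedback genes of STAT signalling, 5 were at 10 CPM or above in all 3 libraries (list median 26.4 CPM), and 3 varied by 2-fold (37.5%, against 42%). Ptpn6, the phosphatase SHP-1, was at 943 ± 258 CPM, Ptpn2, a JAK phosphatase, at 91.7 ± 32.6 CPM, Pias1 at 77.0 ± 12.4 CPM and Pias3 at 26.5 ± 7.06 CPM (SD, n = 3). Socs2 and Socs3, STAT-induced inhibitors of cytokine receptors, ran in opposite directions. Socs2 was at 48.5, 1.17 and 0.395 CPM in tumours 1, 2 and 3 and Socs3 at 6.83, 21.9 and 50.3 CPM. Socs2 had the order of Pim1 and Socs3 the reverse.

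**Figure D4:**
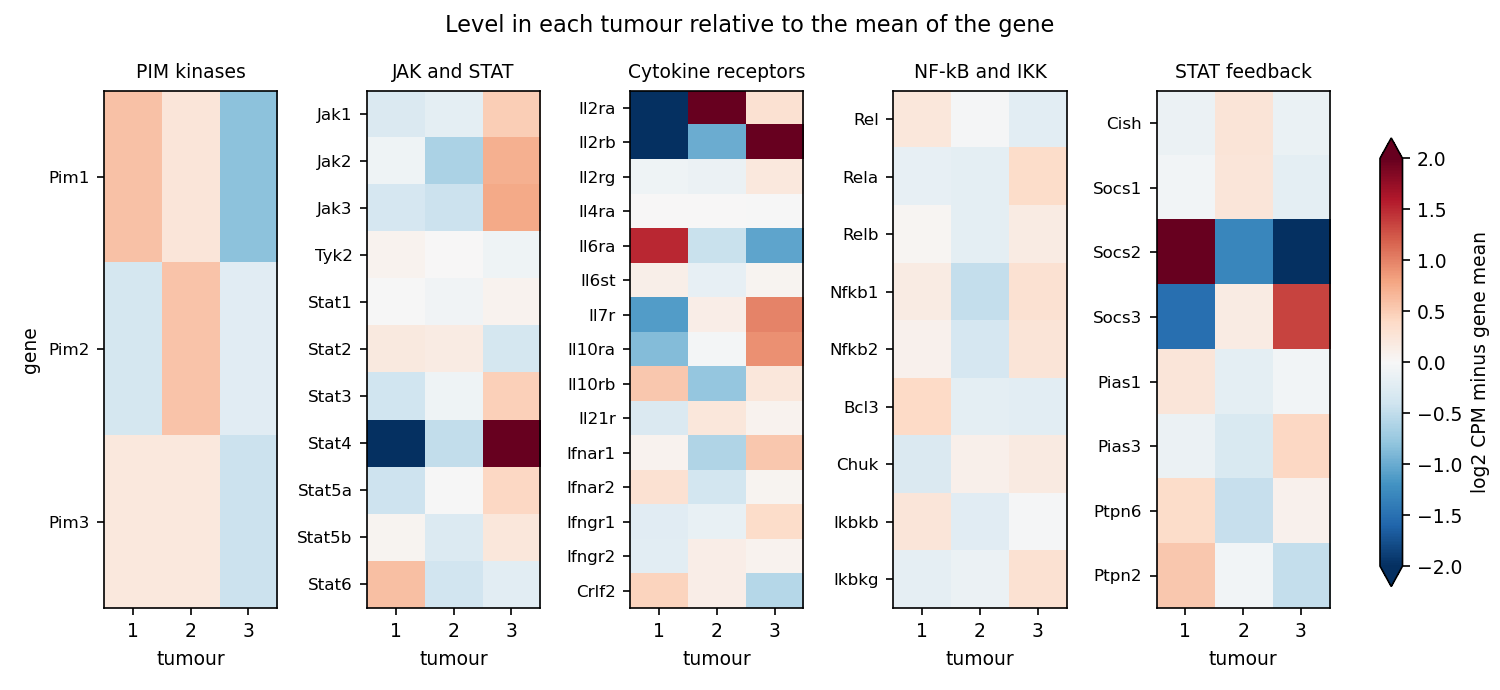
Log2 CPM minus the mean of the gene (colour, red above and blue below, limited at 2 in each direction) in tumours 1, 2 and 3 (columns) for PIM genes and their regulators at a mean of 1 CPM or more (rows). Pim1 is lowest in tumour 3, where 8 of the 11 JAK and STAT genes and 6 of the 9 NF-κB and IKK genes are highest. Of all genes at a mean of 1 CPM or more, 35.3% are highest there. The T cell marker sum was also highest in tumour 3, and its part was not tested. The NF-κB panel shows only pale colours.

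PIM protein is held stable by HSP90 and marked for turnover after dephosphorylation by PP2A. All 10 genes of this list were at 10 CPM or above in all 3 libraries (list median 259 CPM). Hsp90ab1, the constitutive HSP90 gene, was at 4781, 5259 and 3746 CPM in tumours 1, 2 and 3, Ppp2ca, a catalytic subunit of PP2A, at 310 ± 60.04 CPM, and Cdc37, the kinase co-chaperone of HSP90, at 299.6 ± 36.8 CPM (SD, n = 3). Hspa8 (221, 697 and 806 CPM) and the heat-responsive Hsp90aa1 (143, 327 and 273 CPM) varied most and were lowest in tumour 1, where Pim1 was highest.

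Of 11 PIM substrates in cell death and cell cycle, 10 were at 10 CPM or above in all 3 libraries (list median 63.9 CPM). Numa1, a spindle protein, was at 291 ± 49.3 CPM (SD, n = 3). Map3k5, the stress kinase ASK1 that PIM1 inhibits, was at 52.8, 372 and 113 CPM in tumours 1, 2 and 3 and so was highest in tumour 2, as Pim2 was. Cdkn1b (p27) was at 165, 80.8 and 91.02 CPM and Mdm2, the p53 ubiquitin ligase, at 95.5, 163 and 77.4 CPM. Cdkn1a (p21), a p53 target in cells that carry floxed p53, was low at 1.52, 1.90 and 9.47 CPM. Bad itself was at 13.1, 12.2 and 14.99 CPM, outside the naming rule and added because it is a main substrate.

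All 8 substrates in transcription, chromatin and homing were at 10 CPM or above in all 3 libraries (list median 149 CPM). Nfatc1, which PIM1 activates, was at 1714, 730 and 991 CPM in tumours 1, 2 and 3. Myc, which PIM kinases stabilise, was at 712, 995 and 646 CPM, and per length at 289 RPKM on average against 176 RPKM for Pim1. Snd1, a coactivator that binds PIM1, was at 282 ± 30.3 CPM (SD, n = 3). Myb, a transcription factor of immature blood cells, varied most at 295, 98.1 and 27.3 CPM, in the order of Pim1, and Runx3 varied in the reverse order at 77.3, 188 and 208 CPM.

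In cap-dependent translation and mTORC1 signalling, 13 of 15 genes were at 10 CPM or above in all 3 libraries (list median 80.7 CPM). Eif4b, a PIM substrate, was at 737, 777 and 536 CPM in tumours 1, 2 and 3. Eif4g1 was at 643 ± 78.6 CPM, Eif4ebp2 at 349 ± 138 CPM and Eif4a1 at 181 ± 70.3 CPM (SD, n = 3). Eif4ebp1, the translation repressor that mTORC1 and PIM2 phosphorylate, had 535, 639 and 54 counts and was lowest in tumour 3. Rps6 had 64, 167 and 84 counts, and it and Eif4a1 have processed copies, so their counts are uncertain.

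Of 8 kinases that act in parallel, 6 were at 10 CPM or above in all 3 libraries (list median 82.2 CPM). This was 75%, against 30.3% of all genes with a count. Rps6ka1 (RSK1) was at 249 ± 16.8 CPM, Akt1 at 135 ± 27.7 CPM, Pdpk1 at 107 ± 15.4 CPM and Rps6ka3 at 93.7 ± 22.1 CPM (SD, n = 3). Per length, Pim1 at 176 ± 77.5 RPKM was above Rps6ka1 at 58.6 RPKM and Akt1 at 32.9 RPKM. Sgk1, a kinase related to AKT, had 20, 74 and 157 counts in tumours 1, 2 and 3.

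Of 8 genes hit by insertions in Myc-driven mouse lymphoma screens, 5 were at 10 CPM or above in all 3 libraries (list median 97.1 CPM) and 6 of the 7 at a mean of 1 CPM or more varied by 2-fold, against 42%. Gfi1, a repressor often hit together with Pim1, was at 144, 37.8 and 9.64 CPM in tumours 1, 2 and 3. Tnfrsf13c, the BAFF receptor, was at 621, 449 and 235 CPM. Both had the order of Pim1, which 7.22% of all genes at a mean of 1 CPM or more also had with at least 2-fold. Bmi1, a Polycomb protein, was at 83.04, 63.3 and 152 CPM and Ccnd2, a D cyclin, at 205, 671 and 451 CPM. Mycn had no count in any tumour, which allows up to 0.199, 0.184 and 0.169 CPM.

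Among genes that are mutated with PIM1 by aberrant hypermutation in human lymphoma, 12 of 16 were at 10 CPM or above in all 3 libraries. This was 75% (list median 115 CPM), against 30.3% of all genes with a count. The list was led by Cd74, the invariant chain, at 8996 ± 4562 CPM, and Tmsb4x at 1454 ± 538 CPM (SD, n = 3). Next came Pax5, the B cell identity factor, at 1183 ± 197 CPM and Myc at 784 ± 186 CPM. Tmsb4x has processed copies, and its counts are uncertain. Bcl6, the germinal centre repressor, had 7, 43 and 257 counts in tumours 1, 2 and 3, and was lowest in tumour 1, where Pim1 was highest. For Osbpl10, 3 counts in tumour 1 were the only ones. Counts per gene show no mutations, so none were examined in the PIM genes.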

How the data were processed

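PolyA-selected RNA of 3 sorted lymphoma libraries was sequenced as single-end reads of 50 bases. The authors deposited raw counts per gene, made on mm10 with STAR 2.5.2b and featureCounts 1.6.0, with FastQC also named, per the submitters' processing notes. Annotation release and strand setting were both not given in the sources used here. TMM factors of 0.969, 0.990 and 1.04 came from the genes kept by filterByExpr in edgeR 4.0.16, run in R 4.3.3. With 1 group, no contrast was fitted. A prior count of 2 entered log2 CPM, and edgeR gave a common biological coefficient of variation of 0.445. Lengths, positions and transcripts were from GENCODE M21 (GRCm38, the mm10 build), to which 37536 gene identifiers matched without version, and promoters from RefSeq, where all 3 members matched. A count of 3 corresponds to 0.199, 0.184 and 0.169 CPM in tumours 1, 2 and 3. Tumour numbers follow accession order and are names only.

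The members, lists and rules were chosen with earlier results of these data known. Of each list, the 4 members of highest mean CPM were named, the 2 of largest SD of log2 CPM among those at a mean of 1 CPM or more, and members under 1 CPM where 5 or fewer were. For each PIM gene the 3 genes of most similar pattern were named, outside immunoglobulin, mitochondrial, ribosomal protein and predicted genes, with neighbours and overlapping genes. Some genes that these rules name are not reported here. Scaling and the recovery of known folds were tested on simulated counts, as medians over groups of genes and not for single genes. The simulated libraries had a lower biological coefficient of variation than the 0.445 of these data. Size factors from DESeq2 1.42.0 were tried as an alternative. The remaining software was Biopython 1.88, matplotlib 3.10.9 and SciPy 1.17.1 under Python 3.11.15.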

Additional observations from a re-analysis of the deposited data

How the results depend on the processing

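Alternatives covered total counts, DESeq2 size factors, library sizes without immunoglobulin and mitochondrial genes, TMM factors from all genes with a count, coding length, the longest transcript, no length, a prior count of 0.5, a limit of 5 CPM and leaving out each tumour. The mean of Pim1 ranged from 487 to 721 CPM, of Pim2 from 40.6 to 58.5 CPM and of Pim3 from 35.4 to 42.2 CPM. The log2 ratio per length ranged from 2.75 to 3.74 for Pim1 to Pim2, from 3.22 to 3.94 for Pim1 to Pim3 and from -0.65 to -0.022 for Pim3 to Pim2, with no change of sign of the mean. Total counts moved every log2 difference of tumour 1 minus tumour 3 by -0.11 against TMM, and the fold of Pim1 between them was then 2.47. Leaving out each tumour, the SD of log2 CPM ranged from 0.24 to 0.97 for Pim1, from 0.12 to 0.64 for Pim2 and from 0.0026 to 0.46 for Pim3. The number of list genes at 10 CPM or above in all 3 libraries was 96 with TMM factors, 97 with total counts and 96 with DESeq2 size factors. It was 99 at the limit of 5 CPM, and leaving out each tumour gave 96 to 98 in the other libraries. By the longest transcript, Pim3 was below Pim2 in all 3 libraries (-0.65; exact sign-flip permutation p = 0.25, the smallest possible). No paired analysis was possible because the labels give 1 group. Each tumour has 1 library, and at this depth counting error is small for the PIM genes, with the lowest count at 489.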
